A study of Mus musculus with 7 samples.

Results

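The extracellular matrix genes examined here are a fixed list of 47 genes for matrix proteins and for the perineuronal net, listed by gene name. The list was drawn up with earlier results of these data known. They were read in primary cortical cultures that received a lentivirus with a luciferase hairpin and in cultures that were not transduced. Of the 47 genes, 45 had at least 1 probe set annotated to that gene alone, and 32 had such a probe set that could be tested (58 of 22748 tested probe sets, or 32 of 12315 genes in all). *Spp1* and *Fbn1* had no probe set of their own in the annotation used here. The other 13 genes, *Fmod*, *Ogn*, *Col1a1*, *Col3a1*, *Col5a2*, *Col11a1*, *Lama4*, *Nid1*, *Nid2*, *Postn*, *Timp1*, *Mmp2* and *Lox*, stayed under a level of 50 on all 7 arrays used here. The study applied the same level, over all of its samples, as its limit for absent expression.

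Levels are intensities on the linear scale of robust multi-array averaging (RMA), which corrects background, makes the distributions of arrays alike and summarises the probes of a probe set. Whether luciferase and blank arrays were normalized together was not given. The median over the tested probe sets was 237.4 to 241.4 on luciferase arrays and 215.5 to 235.1 on blank arrays. A gene with several tested probe sets is represented by the one with the highest mean level. The members just inside the level limit had highest values of 52.53 (*Lum*), 53.6 (*Bgn*) and 61.37 (*Col1a2*), and the probe sets just outside it had 47.1 (*Col11a1*), 41.37 (*Col11a1*) and 40.26 (*Col5a2*).

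The luciferase group held 4 arrays (replicates 1 to 4) of neurons that carried a lentivirus from which the human H1 promoter drove a short hairpin against luciferase, a gene that mice lack, and which also expressed green fluorescent protein. The blank group held 3 arrays (replicates 5 to 7) of naïve neurons without virus. Both groups were strain C57/Bl6J, tissue E16 embryonic cortex, at 16 days in vitro in serum-free medium, with no further allele or agent named in the labels. The blank samples carry the same general label text on hairpin treatment as the luciferase samples, and the group was taken from the treatment field. A further untransduced culture did not pass the quality control of the authors. The cultures were quadruplicates randomized over plates with no separate litters or days named. The p-values therefore cover no more than the spread between these samples, and that spread may be technical.

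The matrix of the brain differs from that of other organs in holding little fibrous collagen and much hyaluronan. Hyaluronan chains are bound by the lecticans (aggrecan, brevican, neurocan and versican), chondroitin sulfate proteoglycans that link proteins hold in place and tenascin-R crosslinks. Around some neurons, many of them parvalbumin interneurons, this mesh condenses into the perineuronal net. Fibrillar collagens and small leucine-rich proteoglycans such as decorin are in the brain made mainly by fibroblasts of the meninges and the vessels.

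On log2 values, luciferase minus blank, 12 of the 32 measured genes passed an adjusted p of 0.05 from limma, a linear model with moderated errors fitted to all tested probe sets. This is 37.5% of the members, where 25.4% of all genes tested passed. The 7 genes that were higher in luciferase neurons were *Col6a1*, *Sparc*, *Bcan*, *Vcan*, *Hapln4*, *Reln* and *Timp3*, where 16.9% of all genes were higher. The 5 genes that were lower were *Dcn*, *Col1a2*, *Fbln2*, *Fbln5* and *Nell1*, where 8.55% of all genes were lower. Of the 12, *Hapln4* and *Col1a2* reached 50 in 1 group only, the one in which they were high. Among the 28 members at 50 or more in both groups, 6 were higher and 4 lower. The median log2 change was 0.05 over the 32 members and 0.06 over all genes tested. With a change of at least 1.5-fold required as well, 2 of 32 passed, where 4.06% of all genes did: *Col6a1* was higher and *Dcn* lower, where 2.6% and 1.46% of all genes passed in these directions. The luciferase and blank arrays did not overlap in 13 of 32 members, where 37.5% of all genes had groups that did not overlap. The split depended on the scaling. It was 4 higher and 7 lower with each array centred on its median, a scaling that moved the median of all genes to -0.04 and the share of higher genes among all called genes to 37.3% (66.3% as deposited), and 6 higher and 6 lower (50.1%) with quantile normalization.

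**Figure D1:**
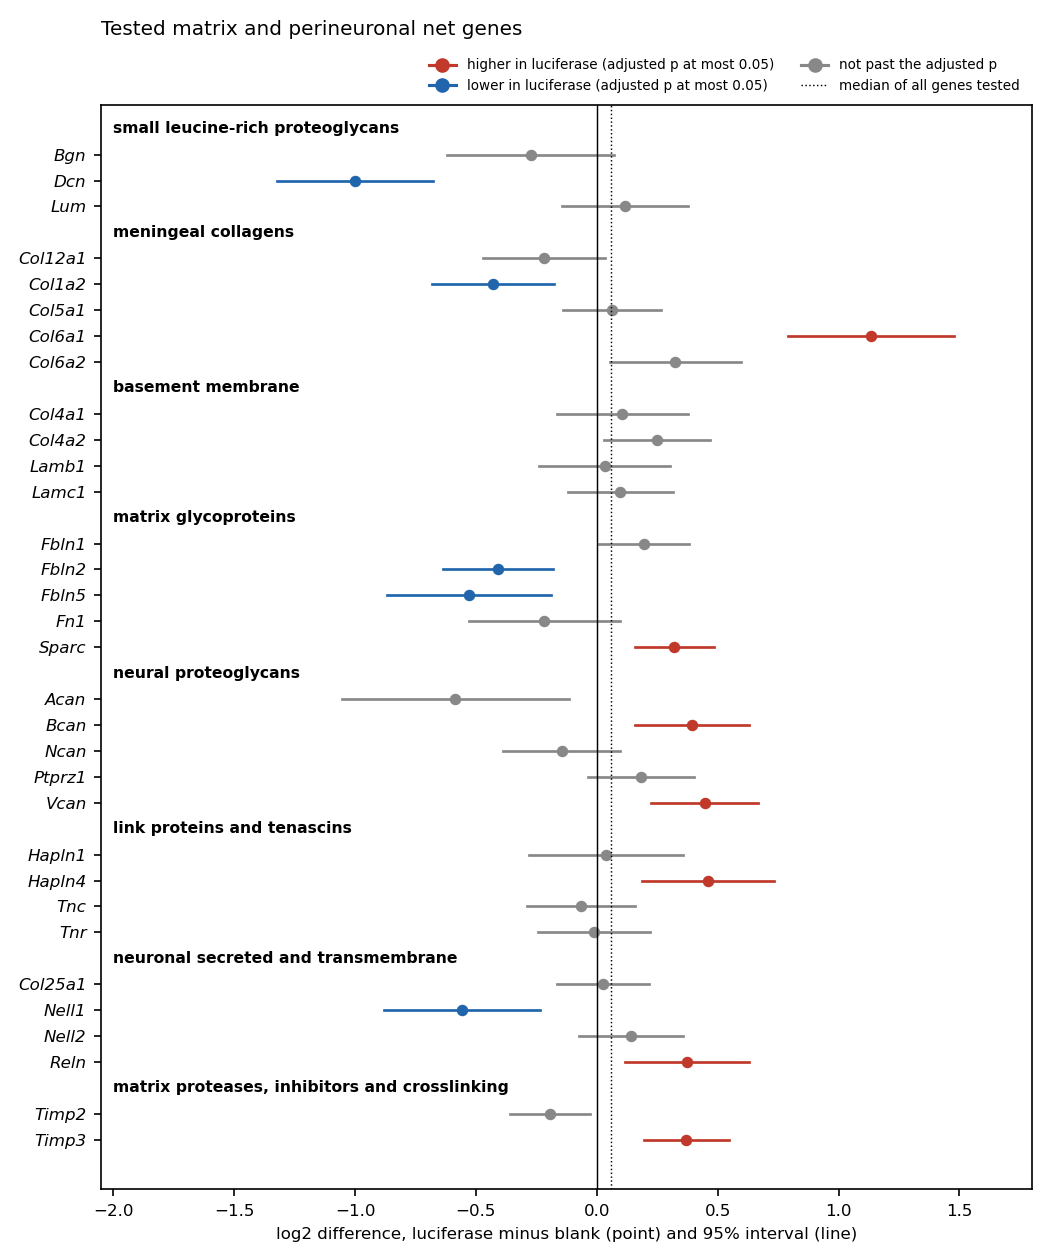
Log2 difference, luciferase minus blank, of the 32 measured matrix genes by role group, with 95% intervals from limma; colour marks the genes past the adjusted p and the dotted line the median of all genes tested. *Col6a1* lies farthest to the right (1.14) and *Dcn* farthest to the left (-1.00).

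Across the series, arrays of the luciferase group correlated with each other at r = 0.9928 to 0.9958, blank arrays at 0.9885 to 0.9954 and arrays of different groups at 0.9774 to 0.9852. Cell type markers moved too. The summed level of 12 astrocyte markers was 25143 to 27464 on luciferase arrays and 18667 to 20747 on blank arrays, with 7 of 11 measured markers higher and 0 lower (*Gfap* by 1.19 on the log2 scale). Of 8 markers of progenitors and cycling cells, *Pax6*, *Hes5* and *Vim* were higher and 5 did not pass, *Mki67* and *Top2a* among them (sum 5344.6 to 5953.5 on luciferase arrays and 4411.7 to 4718.7 on blank arrays). The sum of 10 neuronal markers overlapped between groups, at 47767 to 49323 on luciferase arrays and 47158 to 50271 on blank arrays, but *Nefl* (-0.80) and *Nefm* (-0.66) were lower and *Slc17a7* (0.39) higher. In such bulk samples, fewer cells of a type and less RNA per cell cannot be told apart.

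The collagens and small leucine-rich proteoglycans held the 2 largest changes among the members, in opposite directions. *Dcn* encodes decorin, a small leucine-rich proteoglycan that binds collagen fibrils. It stood at 346.90, 413.48, 385.25 and 540.23 on the luciferase arrays, against 939.64, 804.07 and 760.35 on the blank arrays. All 4 luciferase arrays lay below all 3 blank arrays, with luciferase replicate 4 nearest to them. Luciferase neurons averaged 421 ± 83.7 (SD, n = 4), against 835 ± 93.5 (SD, n = 3) for blank neurons, a log2 change of -1.00 (standard error [SE] 0.14, limma, adjusted p = 0.0022). Of the other small leucine-rich proteoglycans, *Bgn* (biglycan) had a log2 change of -0.27 and *Lum* (lumican) of 0.12, each at 50 or more on 1 array only and neither past the test.

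*Col6a1* encodes the alpha 1 chain of type VI collagen, which forms beaded microfibrils next to cells. Its levels were 258.37, 301.30, 351.49 and 313.25 on the luciferase arrays, against 125.43, 117.85 and 179.86 on the blank arrays. The groups were well apart, and blank replicate 7 was the highest of the blanks. Luciferase neurons averaged 306 ± 38.4 (SD, n = 4), against 141 ± 33.8 (SD, n = 3) for blank neurons, a log2 change of 1.14 (SE 0.15, limma, adjusted p = 0.0016). *Col6a2*, which encodes the alpha 2 chain of the same heterotrimer, stood at 114.38, 155.96, 147.41 and 142.55 on the luciferase arrays, against 118.88, 119.28 and 96.74 on the blank arrays. Luciferase replicate 1 lay among the blanks, and the log2 change of 0.32 did not pass (limma, adjusted p = 0.079; 0.028 without luciferase replicate 1, the only single array whose omission brought it past the threshold). *Col6a3* of the same collagen had a log2 change of -0.04.

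The log2 ratio of the *Col6a1* to the *Col6a2* level within an array averaged 1.13 ± 0.13 on the luciferase arrays (SD, n = 4) and 0.32 ± 0.50 on the blank arrays (SD, n = 3), a difference of 0.81. The luciferase ratios ran from 0.95 to 1.25 and the blank ratios from -0.02 to 0.89, so the groups did not overlap. A two-sided exact permutation test over the 35 splits of the arrays, which doubles the smaller tail, gave p = 0.057. This is the smallest that this form of the test can give for 4 arrays against 3, so it could not reach 0.05. A form that counts absolute differences has a lower limit, was tried and is not reported. The *Col6a1* to *Col6a2* ratio was 1 of 3 such ratios tested, all chosen after their values were seen. In each of the 3 the groups did not overlap, so every p of this permutation test stood at its limit. The adjusted p of 0.057 over the 3 follows from that and corrects for nothing.

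The other collagens often attributed to the meninges were low. *Col1a2*, a chain of fibrillar type I collagen, stood at 48.48, 36.66, 44.61 and 38.37 on the luciferase arrays, against 61.37, 57.04 and 50.96 on the blank arrays. Only the blank arrays reached 50, so the gene entered the test through the group in which it was high. All luciferase arrays lay below all blank arrays. The log2 change was -0.43 (SE 0.11, limma, adjusted p = 0.024, and 0.036 with no limit on level), and the adjusted p was 0.056 to 0.085 when luciferase replicate 2 or 4 or blank replicate 5 or 6 was left out. *Col12a1*, a collagen that associates with fibrils, stood at 59.89, 52.99, 60.87 and 57.78 on the luciferase arrays, against 77.75, 70.10 and 55.97 on the blank arrays. The groups overlapped because of blank replicate 7, the log2 change of -0.22 did not pass (limma, adjusted p = 0.18), and it was -0.35 without that array (adjusted p = 0.018).

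*Col5a1*, a chain of type V collagen that helps to start fibrils, gave different answers by probe set. The probe set with the highest mean stood at 150.79, 167.13, 182.97 and 187.78 on the luciferase arrays, against 162.05, 159.84 and 170.74 on the blank arrays (log2 change 0.06, limma, adjusted p = 0.63). A second probe set stood at 137.27, 153.51, 136.35 and 129.21 on the luciferase arrays, against 196.53, 204.43 and 232.88 on the blank arrays. The first pair of groups overlapped and the second did not. The log2 change of the second was -0.60 (limma, adjusted p = 0.0025), and that of the remaining one was -0.53 (adjusted p = 0.0068). The log2 ratio of the second probe set to the first averaged -0.31 ± 0.21 on the luciferase arrays (SD, n = 4) and 0.36 ± 0.08 on the blank arrays (SD, n = 3) (exact permutation test, two-sided, p = 0.057). That p is again the smallest the test can give, for a ratio chosen after its values were seen.

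Most markers of meningeal fibroblasts were low, which goes against the name of this group. Of 15 listed markers, 9 were under 50 on all arrays, among them *Foxc1*, *Foxd1*, *Slc6a13* and *Twist1*, as were *Col1a1* and *Col3a1*. The summed level of the 15 was 1999.6 to 2462.7 on luciferase arrays and 2073.2 to 2236.8 on blank arrays. Only *Pdgfrb*, a growth factor receptor also found on mural cells, passed the test (log2 change 0.70, limma, adjusted p = 0.0095).

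**Figure D2:**
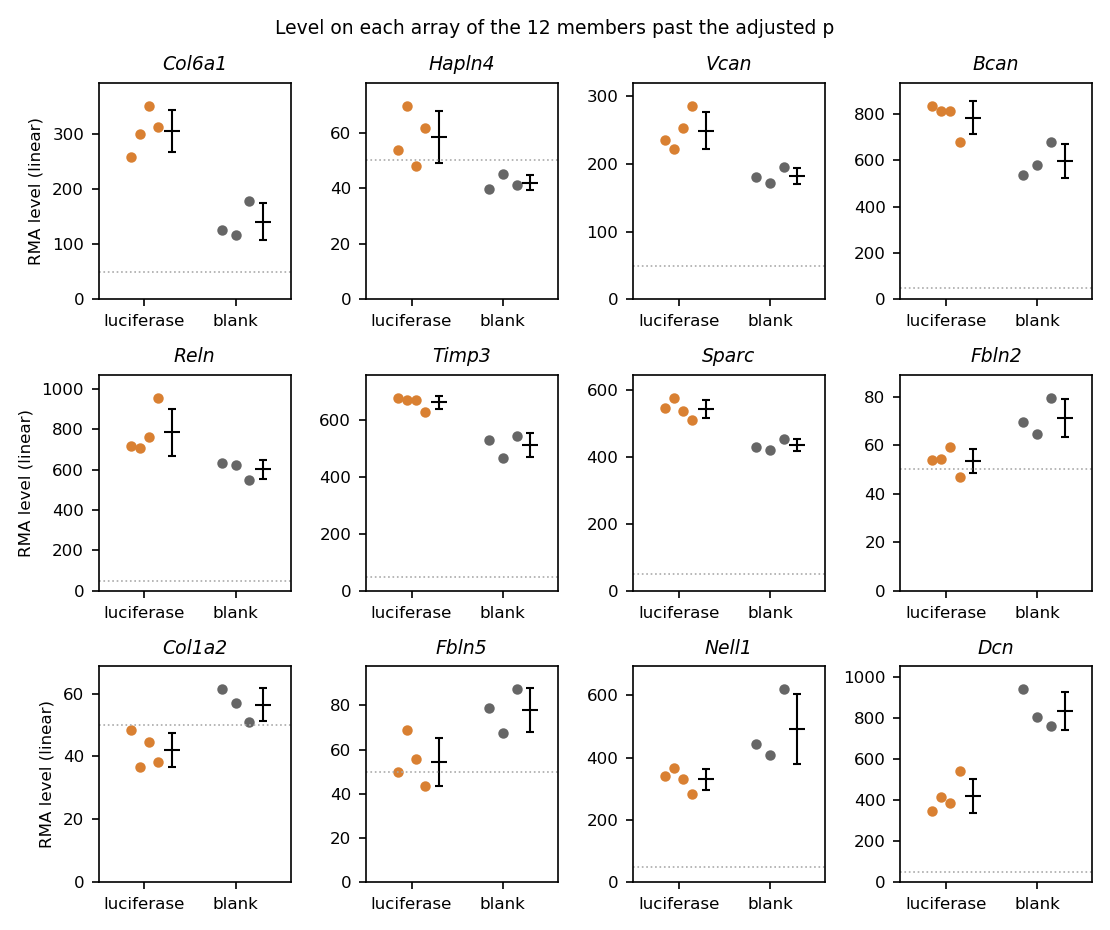
RMA level (linear scale) on each array of the 12 members past the adjusted p, with luciferase (orange, n = 4) and blank (grey, n = 3) arrays; bars give mean ± SD and the dotted line marks a level of 50. The groups do not overlap in any panel other than that of *Fbln5*.

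Of the 5 measured neural proteoglycans 2 were higher and none was lower. The 5 measured meningeal collagens had 1 higher (*Col6a1*) and 1 lower (*Col1a2*, at 50 or more in blank arrays only). The share past the test was 40% in each group, where 25.4% of all genes passed, 16.9% higher and 8.55% lower. With arrays centred on their medians the proteoglycans too had 1 higher (*Vcan*) and 1 lower (*Acan*). All 5 proteoglycans were measured, with a median log2 change of 0.18, against 0.06 over the 5 measured meningeal collagens and 0.06 over all genes. The collagen median was the value of the *Col5a1* probe set with the highest mean, by which that gene did not pass. The other 2 probe sets of *Col5a1* were lower by the test (-0.60 and -0.53). *Vcan* encodes versican, a large lectican made by neural cells and in loose connective tissue. It stood at 235.37, 221.45, 253.01 and 284.87 on the luciferase arrays, against 180.06, 171.12 and 194.96 on the blank arrays. The groups did not overlap, and the log2 change was 0.45 (SE 0.10, limma, adjusted p = 0.012). A second probe set had a log2 change of 0.53 (adjusted p = 0.0060). The third stood at 107.66, 83.53, 90.48 and 84.08 on the luciferase arrays, against 85.88, 88.09 and 96.90 on the blank arrays, a log2 change of 0.01 (adjusted p = 0.94). The log2 ratio of the first probe set to the third averaged 1.44 ± 0.26 on the luciferase arrays (SD, n = 4) and 1.01 ± 0.06 on the blank arrays (SD, n = 3) (exact permutation test, two-sided, p = 0.057). That p is again the smallest the test can give, for a ratio chosen after its values were seen.

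*Bcan* encodes brevican, a lectican of the adult brain that glia and neurons make. Its levels were 833.19, 810.60, 811.48 and 679.04 on the luciferase arrays, against 535.26, 579.35 and 678.16 on the blank arrays. The groups were apart by less than 1 unit, between luciferase replicate 4 and blank replicate 7. The log2 change was 0.39 (SE 0.11, limma, adjusted p = 0.026). The adjusted p was 0.062 to 0.095 when luciferase replicate 1, 2 or 3 or blank replicate 5 or 6 was left out, and 0.055 with arrays centred on their medians. A brighter probe set with a name ending in _x_at, which was left out of the test, stood at 3475.71, 3331.65, 3399.71 and 2844.04 on the luciferase arrays, against 2862.04, 3032.53 and 2469.88 on the blank arrays, and with such probe sets kept *Bcan* did not pass (log2 change 0.23, adjusted p = 0.13).

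*Acan*, which encodes aggrecan, the lectican most used to mark perineuronal nets, stood at 69.55, 77.41, 81.55 and 91.47 on the luciferase arrays, against 104.89, 89.55 and 181.37 on the blank arrays. Luciferase replicate 4 lay above blank replicate 6, and blank replicate 7 was far above the other blanks. The log2 change of -0.59 had a standard error of 0.21 and did not pass (limma, adjusted p = 0.069), though it did without blank replicate 6 (-0.79, adjusted p = 0.035). *Ncan* (neurocan) stood at 2750.04, 2955.74, 3129.58 and 3011.88 on the luciferase arrays, against 3019.16, 2947.76 and 3933.33 on the blank arrays. *Ptprz1*, a receptor phosphatase whose secreted form is the proteoglycan phosphacan, stood at 1879.49, 1696.21, 1963.47 and 2134.99 on the luciferase arrays, against 1760.89, 1786.20 and 1517.17 on the blank arrays. Both overlapped between groups, with log2 changes of -0.14 (95% interval -0.39 to 0.10) and 0.18 (-0.04 to 0.40) that did not pass.

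Beside the higher *Vcan* and *Bcan*, and beside *Sparc* and *Timp3*, stand the astrocyte markers and *Pax6*, *Hes5* and *Vim* given above, whose part in the result was not tested. The difference between the medians of the collagens and of the proteoglycans is a description without a test. Its direction depended on the setting. With all tested probe sets of a gene averaged the medians were -0.22 for the collagens and 0.22 for the proteoglycans. A minimum of 100 on any array gave 0.32 for the collagens and 0.18 for the proteoglycans. A minimum of 50 on all arrays gave 0.19 and 0.18.

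Of the link proteins and tenascins, 1 of 4 passed, a share like the 25.4% of all genes. *Hapln4* encodes a link protein known from the perineuronal nets of the brainstem and cerebellum. It stood at 53.77, 69.47, 48.04 and 61.62 on the luciferase arrays, against 39.69, 45.04 and 41.31 on the blank arrays. No blank array reached 50, so the gene entered the test through the group in which it was high. Its groups were apart. The log2 change was 0.46 (SE 0.12, limma, adjusted p = 0.025, and 0.036 with no limit on level), with an adjusted p of 0.061 with arrays centred on their medians, 0.082 without blank replicate 5 and 0.058 without luciferase replicate 4. *Hapln1*, the link protein of cortical nets, *Tnc* and *Tnr*, which encode tenascin-C and tenascin-R, had log2 changes of 0.04, -0.06 and -0.01. Their 95% intervals were -0.28 to 0.36, -0.29 to 0.16 and -0.24 to 0.22. *Pvalb*, the marker of the interneurons that nets most often surround, had a log2 change of 0.25 that did not pass (limma, adjusted p = 0.21).

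Among the proteins that neurons secrete or carry, *Reln* and *Nell1* moved in opposite directions. *Reln* encodes reelin, a large glycoprotein of Cajal-Retzius cells and interneurons that guides cortical layering. It stood at 716.81, 706.05, 760.09 and 955.40 on the luciferase arrays, against 634.35, 622.61 and 549.09 on the blank arrays. The groups did not overlap and luciferase replicate 4 was the highest. The log2 change was 0.37 (SE 0.11, limma, adjusted p = 0.041), and the adjusted p was 0.0515 to 0.089 when luciferase replicate 1, 3 or 4 or blank replicate 5, 6 or 7 was left out. It was 0.122 with arrays centred on their medians, 0.098 with quantile normalization and 0.059 with no limit on level. *Calb2*, listed as a marker of Cajal-Retzius cells and also found in interneurons, was higher by 0.77 (adjusted p = 0.0016), while *Trp73*, *Lhx1*, *Lhx5*, *Ebf3* and *Eomes* were under 50 on all arrays. *Cacna2d2*, the only other measured marker of the list, had a log2 change of 0.15 that did not pass. The 7 listed markers, of which these 2 carry most of the level, summed to 2880.5 to 3417.5 on luciferase arrays. The sum was 1731.7 to 2111.2 on blank arrays, and the part of these markers in the result was not tested.

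*Nell1* encodes a secreted protein with thrombospondin-like and EGF-like repeats. It stood at 339.69, 365.69, 329.84 and 283.36 on the luciferase arrays, against 444.92, 409.51 and 618.89 on the blank arrays. The groups did not overlap, and blank replicate 7 was the highest. The log2 change was -0.56 (SE 0.14, limma, adjusted p = 0.022), with an adjusted p of 0.053 without luciferase replicate 3 and 0.051 without luciferase replicate 4. Its paralog *Nell2* had a log2 change of 0.14 in the probe set with the highest mean and of -0.23 in the other, neither past the test. *Col25a1*, a transmembrane collagen of neurons, had a log2 change of 0.03. Its second probe set stood at 82.14, 79.69, 75.12 and 63.75 on the luciferase arrays, against 97.04, 107.35 and 88.26 on the blank arrays, and was lower by the test (-0.38, limma, adjusted p = 0.031).

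Of the 5 measured matrix glycoproteins, 1 was higher and 2 were lower (60% past the test, where 25.4% of all genes passed). *Sparc* encodes osteonectin, a collagen-binding protein that astrocytes and vessels release. It stood at 547.78, 578.03, 539.15 and 511.82 on the luciferase arrays, against 430.93, 420.43 and 454.90 on the blank arrays. The groups did not overlap, and the log2 change was 0.32 (SE 0.07, limma, adjusted p = 0.014; 0.051 without blank replicate 6). Its remaining probe sets, with log2 changes of 0.29 and -0.002, did not pass.

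*Fbln2* and *Fbln5* encode fibulins of basement membranes and elastic fibres, and both were lower. *Fbln2* stood at 53.73, 54.45, 59.23 and 47.03 on the luciferase arrays, against 69.49, 64.54 and 79.56 on the blank arrays (log2 change -0.41, SE 0.10, limma, adjusted p = 0.020; 0.0504 without blank replicate 5). *Fbln5* stood at 49.88, 69.07, 55.69 and 43.41 on the luciferase arrays, against 78.70, 67.68 and 87.34 on the blank arrays (log2 change -0.53, SE 0.15, limma, adjusted p = 0.033). *Fbln2* separated the groups, and in *Fbln5* luciferase replicate 2 lay above blank replicate 6. The adjusted p of *Fbln5* was 0.064 to 0.085 when luciferase replicate 1, 3 or 4 or blank replicate 5 or 7 was left out. *Fbln1* had a log2 change of 0.19 and *Fn1*, which encodes fibronectin, of -0.22, and neither passed. Beside these genes, 2 of 4 measured endothelial markers were lower, *Flt1* and *Esam*, the second at 50 or more on 1 blank array only. *Kdr* and *Eng* did not pass (log2 changes -0.25 and -0.24), and the other 7, among them the defining *Pecam1*, *Cldn5* and *Cdh5*, were under 50 on all arrays. The 11 summed to 330.53 to 372.57 on luciferase arrays and 385.85 to 450.31 on blank arrays. Their part in the result was not tested.

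None of the 4 measured basement membrane genes passed, where 25.4% of all genes did. *Col4a1* and *Col4a2*, the chains of the common type IV collagen, had log2 changes of 0.11 (95% interval -0.16 to 0.38) and 0.25 (0.03 to 0.47), and *Lamb1* and *Lamc1*, which encode laminin chains, of 0.03 and 0.10. In RefSeq on GRCm38.p6, *Col4a1* and *Col4a2* start 21 bases apart on opposite strands. *Col4a2* passed without blank replicate 7 (0.36, limma, adjusted p = 0.011).

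*Timp3* was higher in every probe set tested. It encodes an inhibitor of metalloproteases that binds to the matrix. It stood at 680.05, 673.39, 672.76 and 629.40 on the luciferase arrays, against 529.93, 467.56 and 546.17 on the blank arrays. The groups did not overlap, and the log2 change was 0.37 (SE 0.08, limma, adjusted p = 0.011). All 4 of its tested probe sets were higher, with log2 changes from 0.34 to 0.37. *Timp2*, which encodes another inhibitor of the family, had a log2 change of -0.19 that did not pass (limma, adjusted p = 0.082). It passed with arrays centred on their medians (-0.29, adjusted p = 0.016) and with quantile normalization (-0.22, adjusted p = 0.038). The other tested probe sets of *Timp2* had log2 changes from -0.07 to 0.03 as deposited, none past the test (limma, adjusted p 0.67 to 0.93).

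**Figure D3:**
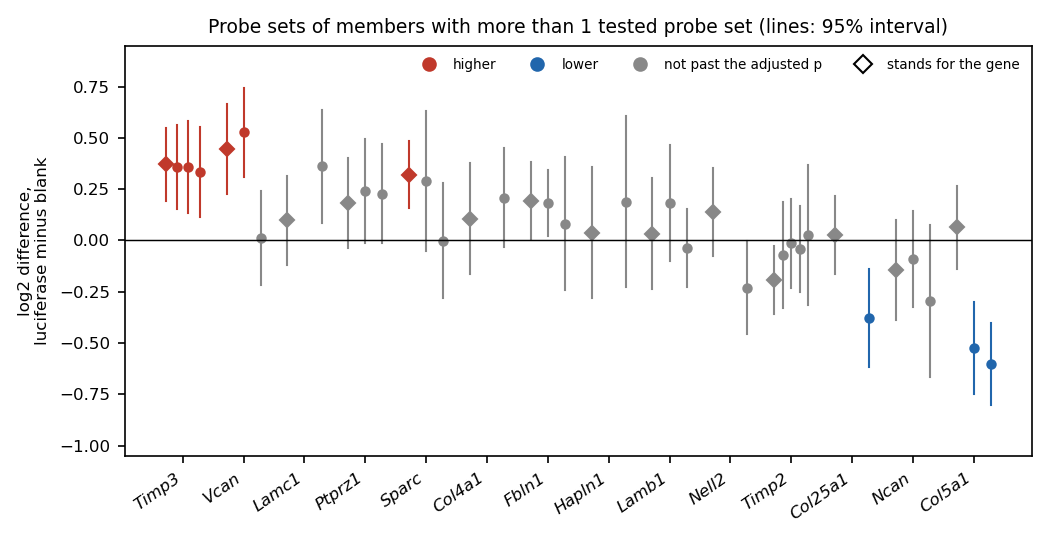
Log2 difference, luciferase minus blank, of every tested probe set of the members with more than 1, with 95% intervals from limma; diamonds stand for the gene and colour marks the call. The 4 probe sets of *Timp3* lie at 0.34 to 0.37, while those of *Col5a1* run from -0.60 to 0.06.

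Promoters of the members on which the results turn are shown so that the genes that moved can be read beside the partner that did not pass. They are the 250 bases before the annotated start from RefSeq (GRCm38.p6), in which 34 members matched with 40 windows. *Dcn* had no entry. Capitals mark matches, on either strand, to any of 4 motifs searched: AP-1 (TGANTCA), the cAMP element half-site (TGACG), the GC box (GGGCGG) and the TATA box (TATAAA). Matches may overlap.
Col6a1, chr10:76726045-76726294, minus strand: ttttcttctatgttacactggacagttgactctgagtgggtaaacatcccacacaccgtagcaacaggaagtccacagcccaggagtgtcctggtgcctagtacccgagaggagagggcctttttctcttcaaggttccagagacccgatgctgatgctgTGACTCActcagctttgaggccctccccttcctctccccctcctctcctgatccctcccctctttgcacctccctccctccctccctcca
Col6a2, chr10:76623405-76623654, minus strand: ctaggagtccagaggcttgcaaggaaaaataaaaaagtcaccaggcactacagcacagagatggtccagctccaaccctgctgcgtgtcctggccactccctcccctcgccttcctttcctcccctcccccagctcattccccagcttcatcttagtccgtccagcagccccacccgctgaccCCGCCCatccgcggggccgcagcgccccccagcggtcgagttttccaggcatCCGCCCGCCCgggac
Vcan, chr13:89742513-89742762, minus strand: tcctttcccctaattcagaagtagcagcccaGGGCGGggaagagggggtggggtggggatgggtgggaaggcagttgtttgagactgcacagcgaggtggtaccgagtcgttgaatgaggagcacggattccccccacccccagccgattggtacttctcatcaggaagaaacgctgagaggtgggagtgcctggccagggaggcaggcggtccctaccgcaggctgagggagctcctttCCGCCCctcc
Timp3, chr10:86300162-86300411, plus strand: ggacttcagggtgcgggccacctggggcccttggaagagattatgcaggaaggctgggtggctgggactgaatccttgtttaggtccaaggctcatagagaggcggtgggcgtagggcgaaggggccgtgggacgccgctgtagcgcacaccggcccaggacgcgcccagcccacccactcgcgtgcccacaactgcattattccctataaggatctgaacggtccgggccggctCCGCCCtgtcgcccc
Nell1, chr7:49975100-49975349, plus strand: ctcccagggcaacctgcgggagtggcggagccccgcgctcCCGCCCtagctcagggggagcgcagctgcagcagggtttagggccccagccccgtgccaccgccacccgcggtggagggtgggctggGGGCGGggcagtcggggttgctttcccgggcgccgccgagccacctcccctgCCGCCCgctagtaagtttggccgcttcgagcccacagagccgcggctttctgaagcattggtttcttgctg

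The *Col6a1* window was the only one of the 40 with an AP-1 match, 90 bases before the start (2.5% of member windows, against 6.75% of 32851 windows in all). The GC box was found in 65% of member windows and 32.7% of all, the cAMP element half-site in 7.5% and 17.8%, and the TATA box in 17.5% and 12.4%. A match is a description of the letters in the window. *Col6a2* has a second annotated start, and neither of its windows held an AP-1 match.

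Of 194 other matrix genes that were listed, 127 were measured. Of these, 27 were higher, 21 lower and 79 not past the test (37.8% past it, where 25.4% of all genes passed, 16.9% higher and 8.55% lower). The median log2 change was 0.05, and 5 of the 48 called genes reached 50 in 1 group only. By list, the counts of higher and lower genes were 1 and 3 of 13 other collagens, 4 and 2 of 19 genes of collagen synthesis, and 3 and 2 of 9 other basement membrane genes. They were 5 and 4 of 18 other glycoproteins, 2 and 5 of 21 genes of hyaluronan and chondroitin sulfate, and 5 and 3 of 13 heparan sulfate proteoglycans. They were 4 and 1 of 14 proteases and inhibitors, and 3 and 1 of 20 matrix receptors.

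Among the collagens, *Col22a1*, a collagen of tissue junctions, was lower by the test with a log2 change of -1.00 (limma, adjusted p = 8.1e-04), as was *Col26a1* (-0.78), and *Col23a1*, a transmembrane collagen, was higher (0.47). Of the enzymes that modify collagen, *Plod2*, a lysyl hydroxylase, and *P3h3*, a prolyl hydroxylase, were higher (0.53 and 0.52), and *Adamts3*, a procollagen peptidase, was lower (-0.56). *Plod2* did not pass with the probe sets of a gene averaged (limma, adjusted p = 0.115). In basement membranes *Hspg2*, which encodes perlecan, was lower (-0.52).

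Of the genes of hyaluronan and chondroitin sulfate, the sugar chains of the net, *Chst11*, a chondroitin sulfotransferase, was lower (-0.64). *Chst7*, another sulfotransferase, and *Cd44*, a hyaluronan receptor, were higher (0.50 and 0.68), though neither passed without blank replicate 5 or 6 (adjusted p 0.052 to 0.056). *Sdc3*, the syndecan of neurons, was lower (-0.94, limma, adjusted p = 3.5e-04), and *Sdc4* and *Gpc4*, a glypican that astrocytes release, were higher (0.54 and 0.47). Among proteases that act on the matrix, *Adamts15* and *Mmp14* were higher (0.73 and 0.65) and *Mmp9* was lower (-0.33). *Mmp9* did not pass without blank replicate 6 or luciferase replicate 2 (limma, adjusted p up to 0.0547). *Matn2*, a matrilin, was higher (0.94), and *Ccn2* and *Ccn1*, matricellular proteins known as early response genes, were lower (-0.69 and -0.60). *Vldlr*, a reelin receptor, had a log2 change of 0.25 (adjusted p = 0.031), but did not pass in 9 of 16 alternatives, among them centring (adjusted p = 0.169) and quantile normalization (0.091).

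**Figure D4:**
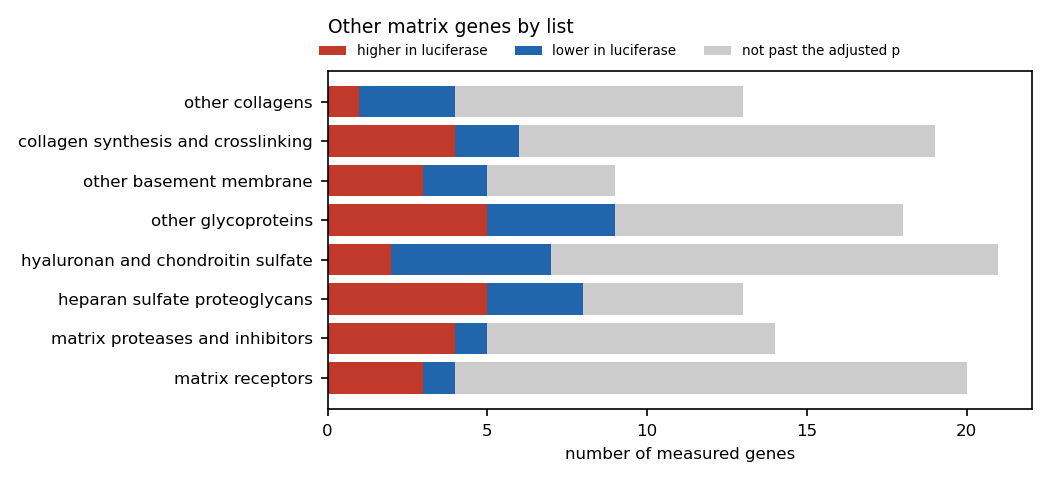
Number of measured genes in each of 8 lists of other matrix genes that were higher in luciferase neurons, lower, or not past an adjusted p of 0.05 from limma. Heparan sulfate proteoglycans have 8 of 13 past the test and matrix receptors 4 of 20.

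The genes whose level was most like that of *Col6a1* over the 7 arrays were *Zdhhc21*, *Irf2bp2* and *Syn2*, with Pearson r of 0.997, 0.997 and 0.996 on the log2 scale. For *Bcan* they were *Crbn*, *Srrt* and *Plxnb1*, with r of 0.995, 0.992 and 0.991. These are the highest of all tested probe sets with 1 gene, and the 7 points share the difference between the groups.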

How the data were processed

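The authors normalized Affymetrix mouse arrays with RMA and deposited intensity values on a linear scale, of which 45101 probe sets on 7 arrays were analysed here. The version of RMA was not given in the sources used here, nor was it said which arrays were normalized together. A difference in processing between the groups therefore cannot be told apart from the treatment. Blank columns stood 1 probe set low and were moved up by 1 (r of group means 0.995 afterwards, at most 0.421 with other moves). Names ending in _x_at and probe sets under 50 on all of the 7 arrays were left out, after the study's methods, which applied that limit over all samples of the study. Control probe sets were left out as well. Log2 values of 22748 probe sets were fitted by lmFit and eBayes without covariates (limma 3.58.1, R 4.3.3) and adjusted over all of them after Benjamini and Hochberg. The fit was tested on simulated data. The median moderated SD was 0.12 in log2 units, and the number of arrays limits the precision. Members, lists and tests were chosen with earlier results of these data known. All members could be named, and up to 4 called genes of each other list with the largest change, not all of which are given. Alternatives changed the level filter, scaling, variance model, _x_at names, the averaging of probe sets and the arrays, 1 at a time. The ratios of levels were compared in Python 3.11.15.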

Additional observations from a re-analysis of the deposited data

Results flagged for a closer look

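In 3 of the 32 measured members, 1 luciferase array stood apart from the other 3 by more than the critical value of the Dixon test, and in each it was replicate 4. *Bcan* was at 679.04 there, against 810.6 to 833.19 on the other luciferase arrays. *Timp3* was at 629.4, against 672.76 to 680.05. *Lamc1* was at 144.49, against 126.19 to 126.93. Chance sets apart about 1 in 20 groups.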

How the results depend on the processing

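No paired analysis was possible because the replicate numbers of luciferase (1 to 4) and blank (5 to 7) arrays share none. Of 12 called members, *Col6a1*, *Dcn*, *Timp3* and *Vcan* passed under all 16 alternatives, and the other 8 did not pass in at least 1. Of 20 members that did not pass, *Acan*, *Col12a1*, *Col4a2*, *Col6a2* and *Timp2* passed in at least 1 with the same sign. *Col5a1* passed as well, with the opposite sign, when the probe sets of a gene were averaged. Of 32 other matrix genes covered by the naming rule, 18 passed wherever they had a value. Causes were not tested. With 1 array left out in turn, 4 to 7 members were higher and 2 to 5 lower (past 1.5-fold as well, 1 to 4 lower). In the same fits 13 to 36 other matrix genes were higher, and the basement membrane median ran from 0.040 to 0.22. Of all 12315 genes, 1111 to 2846 were higher and 671 to 1148 lower in these fits, against 2076 and 1053 with all arrays. Centring arrays gave 4 higher members, 4 lower past 1.5-fold and 17 higher other matrix genes, where 1160 of all genes were higher and 1946 lower. The medians were then 0.0053 for basement membrane, -0.0073 for proteases and inhibitors and 0.088 for neural proteoglycans. Quantile normalization gave 2 lower past 1.5-fold and a basement membrane median of 0.028. A minimum of 100 on any array, or of 50 on all, left 24 or 26 members, 2 of them lower, where 847 or 909 of all genes were lower. Medians were then 0.19 for glycoproteins and -1.00 for small leucine-rich proteoglycans, and the minimum of 100 gave 0.32 for meningeal collagens. No level filter gave -0.050 for proteases and inhibitors. Array weights gave 44 higher other matrix genes, where 3642 of all 12315 genes were higher, and 0.19 for basement membrane. Averaging probe sets gave 0.19 for basement membrane, 0.15 for proteases and inhibitors, -0.22 for meningeal collagens and -0.11 for neuronal secreted and transmembrane genes. Signs turned only in members that had not passed. Centring gave *Col25a1* -0.070, *Col5a1* -0.032, *Hapln1* -0.058 and *Lamb1* -0.064, quantile normalization *Col25a1* -0.046, *Col5a1* -0.016 and *Lamb1* -0.062, and averaging *Col25a1* -0.18, *Col5a1* -0.36 (adjusted p = 0.0091 from limma) and *Nell2* -0.046. Array weights gave *Tnr* 0.060. With 1 array left out, values ran from -0.043 to 0.083 for *Col25a1*, -0.021 to 0.25 for *Col4a1*, -0.061 to 0.19 for *Hapln1*, -0.10 to 0.14 for *Lamb1*, -0.15 to 0.036 for *Tnc* and -0.057 to 0.064 for *Tnr*.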
